A study of Homo sapiens with 3 samples.

Results

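Of the MYC-bound regions that were called both in untreated P493 cells and after MST-312, 2158 held a summit signal that was as high or higher after the drug. P493 is a human B cell line with a tetracycline-repressible MYC gene, and MST-312 is a small-molecule telomerase inhibitor. Chromatin immunoprecipitation and sequencing (ChIP-seq) with the N262 antibody against MYC gave 1 library of untreated cells and 1 library of cells given MST-312. A library of untreated input DNA, made without immunoprecipitation, was the third sample of the series and served as the background for both peak lists. How much MST-312 the cells received, for how long, and whether the repressible MYC gene was on in either culture is not stated in the labels. With 1 library per condition there was no replicate check of any difference, and no p-value is given.

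Regions were paired when 1 of the 31378 untreated regions and 1 of the 27614 MST-312 regions shared at least 1 bp with each other and with no other region. This gave 15265 pairs, of which 14199 had an untreated region under 2000 bp. The pileup is the number of DNA fragments, each tag extended to the assumed fragment length, that cover the summit of a region. A pair was taken as kept or raised when its MST-312 pileup divided by its untreated pileup was 1.0 or more, and as lowered otherwise. The 2158 kept or raised pairs were 15.2% of the 14199 (exact Clopper-Pearson 95% interval 14.6 to 15.8), and the other 12041 were lowered. This share is the yield of the rule itself and is given as a description. All intervals for shares below are of the same kind and cover counting error over regions, not the spread between libraries.

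MYC is a basic helix-loop-helix leucine zipper transcription factor that binds DNA as a partner of MAX, with the E-box as its preferred sequence. At active promoters it also associates with open chromatin and with other DNA-bound proteins, so that a ChIP-seq library of a cell with abundant MYC holds a few very high regions and many low ones. The height of a region reports how often fragments from that place were recovered, and with no spike-in named in the sources it is relative to the rest of its own library. Gene names and sequences are not given for the regions, because the peak lists are on the hg19 build and the reference tables used were not.

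The MST-312 library kept 55400354 tags after the limit on duplicates, which was 8.89% fewer than the 60805153 of the untreated library, and the pileups stand as deposited for both. Its redundant rate was 0.49, against 0.24 in the untreated library and 0.01 in the input. Both the number of kept tags and the redundant rate differ between the conditions, and their part in the ratios was not tested. With pileups divided by kept tags, the limit of 1.0 corresponds to a deposited ratio of 0.911, which 3157 pairs (22.2%) reached.

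Fewer than 1 in 10 of the kept or raised pairs reached a ratio of 1.5. Over all 14199 pairs the median ratio was 0.70 (quartiles 0.568 and 0.881), and over the 2158 it was 1.13 (quartiles 1.05 and 1.27). In 186 pairs both pileups were the same number. A ratio of 1.1 or more was found in 1271 pairs (58.9% of the kept or raised), an MST-312 pileup at least 25% above the untreated one in 606 (28.1%), 1.5 or more in 198 (9.18%) and 2.0 or more in 20 (0.927%). Pileups are counts of fragments, so each ratio carries a counting error even within its 2 libraries. For 251 of the 2158 pairs (11.6%) the exact 95% counting interval of the ratio lay wholly above 1, and for the other 1907 it held 1. Since the ratio chose the pairs, these counts describe its precision and are no evidence of a rise. Among the 12041 lowered pairs the interval lay wholly below 1 in 7701 (64.0%). The 2 percentages are not on equal terms, since lowered pairs had more untreated fragments (median 105 against 52), which narrows their intervals. The MST-312 library also kept fewer tags, at 0.911 of the untreated number, and the intervals are not adjusted for this.

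**Figure D1:**
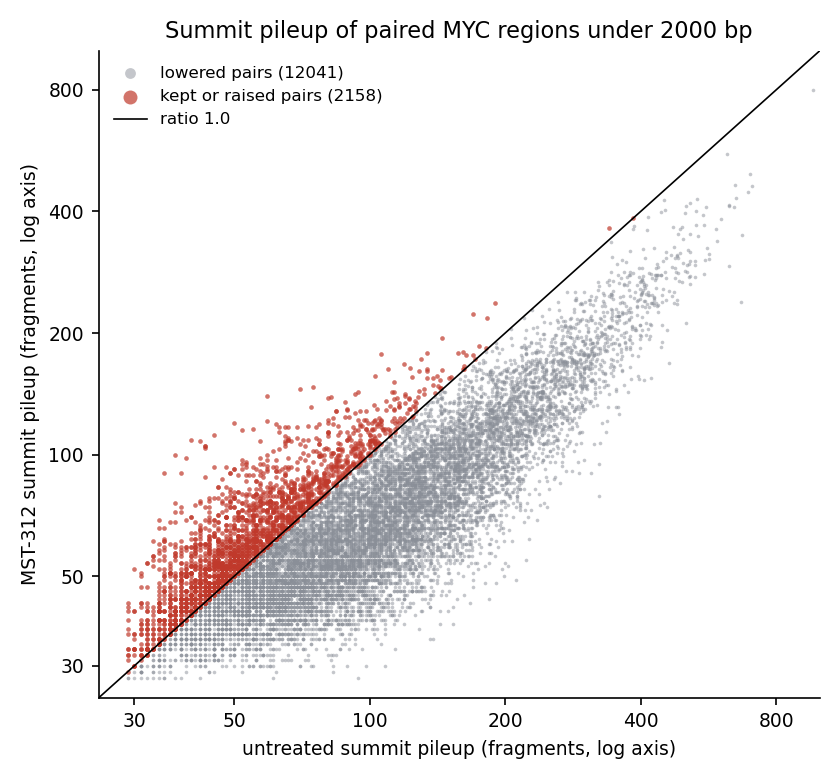
Summit pileup in the MST-312 library (y axis, fragments, log scale) against the untreated library (x axis, fragments, log scale) for the 14199 paired regions under 2000 bp. Red points are the 2158 kept or raised pairs, on or above the line of ratio 1.0, and grey points the 12041 lowered pairs; the red points gather at low pileups, and few lie beyond 200 fragments on either axis.

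The kept or raised pairs had low untreated pileups, which the rule favours because the untreated pileup is the denominator of its ratio. The median untreated pileup of the kept or raised pairs was 52.0 fragments (quartiles 43.0 and 67.0) and their median MST-312 pileup was 62.0 (quartiles 50 and 81). The lowered pairs had medians of 105 fragments (quartiles 73 and 156) and 66 fragments (quartiles 49 and 95). These medians, and the parts by mean pileup that follow, come from the values that chose the pairs and are a description. When all pairs were divided into 10 parts by the mean of both pileups, the kept or raised share was 36.5% (34.1 to 39.1) in the lowest part, with means from 28.5 to 46.5 fragments. The following 4 parts had shares of 30.1%, 21.5%, 18.4% and 16.4%, and the 4 after them 10.4%, 8.73%, 5.38% and 2.95%. In the highest part, with means from 170.5 fragments, 10 of 1415 pairs were kept or raised (0.707%, 0.339 to 1.3). The median ratio of all pairs went from 0.921 in the lowest part to 0.598 in the highest. No listed untreated region had fewer than 29 fragments and no MST-312 region fewer than 28. A pair whose signal was below the listing level in either library is in no part. The lowest parts therefore lack the pairs that fell furthest and those that rose furthest, and how much of the gradient this makes was not tested.

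**Figure D2:**
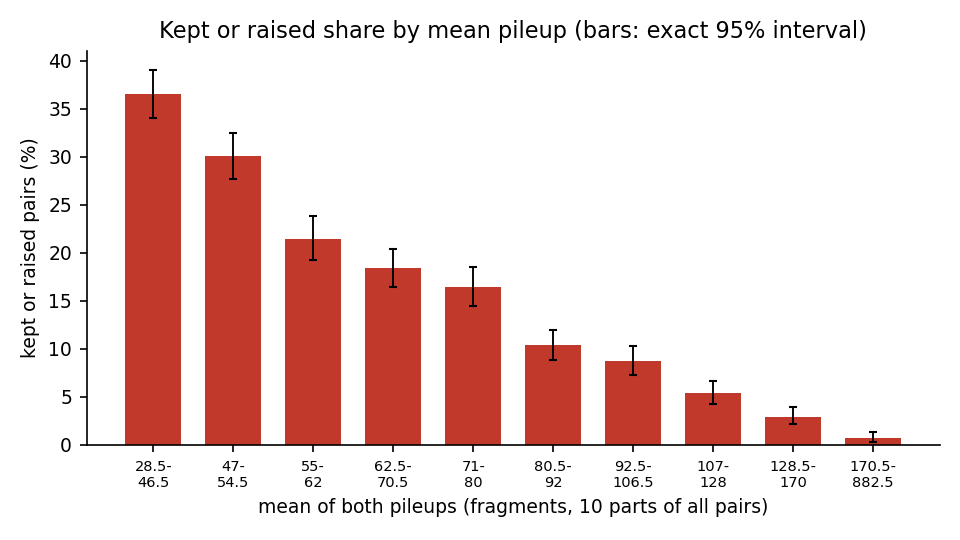
Share of pairs that were kept or raised (y axis, percent, from 0) in 10 parts of the 14199 pairs by the mean of their 2 pileups (x axis, fragments), with exact 95% intervals as error bars. The share was 36.5% in the lowest part and 0.707% in the highest.

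Because mean pileup differed so much, comparisons said to be at equal mean pileup weight the lowered pairs so that they have the same distribution of mean pileup as the kept or raised ones. Both sets then have a median mean pileup of 57.0 fragments with quartiles of 47.0 and 74.0. The kept or raised pairs still have the lower untreated pileup (median 52.0 against 67.0) and the higher MST-312 pileup (62.0 against 47.0), as the rule requires. The same holds for the median −log10 q, which was 21.6 and 35.9 in the untreated list and 32.1 and 19.8 in the MST-312 list.

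The 10 kept or raised pairs with the highest mean pileup were chosen by rank. The highest lay on chromosome 20 at 26189800 to 26190382 (hg19, 1-based, as all positions here), with a pileup of 385 fragments untreated and 386 after MST-312. Its local background, which is the pileup the caller derived from the input around the summit, was 191 and 173 fragments, so that its fold enrichment over that background was only 2.01 and 2.22. The kept pair on chromosome 20 is therefore a place where the input itself is high. The next lay on chromosome X at 77358832 to 77360166, with 341 fragments untreated and 364 after MST-312, a ratio of 1.07 (counting interval 0.918 to 1.24). Its local background was low, at 6.75 and 6.15 fragments, and its fold enrichment of 44.1 and 51.1 was the highest of all kept or raised pairs in each list. The summits lay 45 bp apart, while the region was 1335 bp long untreated and 961 bp after MST-312. The pair 1.14 kb further along chromosome X, at 77360265 to 77360846, was also raised, from 35 to 41 fragments. The pair after it, at 77361765 to 77362307, was lowered from 46 to 40.

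Only 2 of these 10 strong pairs had a counting interval above 1. On chromosome 11, the region at 61562772 to 61564109 had 190 fragments untreated and 238 after MST-312 (ratio 1.253, 1.03 to 1.52). Its summits lay 414 bp apart, the largest distance among the 10, so the pileups were not read at the same place within the region. On chromosome 14, the region at 96133593 to 96134162 went from 170 to 223 fragments (ratio 1.31, 1.07 to 1.61), with summits 18 bp apart and a length of 570 bp untreated and 737 bp after MST-312. That pair is the strongest one whose summit stayed in place and whose interval lay above 1. On chromosome 19, the region at 14096325 to 14097793 went from 182 to 218 fragments (ratio 1.20, 0.979 to 1.47).

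The others of the 10 had ratios from 1.01 to 1.12. They lay on chromosome 9 at 137298830 to 137299710 (181 and 184 fragments), chromosome 1 at 42192330 to 42193696 (175 and 186), chromosome X at 48326185 to 48328048 (170 and 176) and chromosome 1 at 182583886 to 182584658 (161 and 180). The pair on chromosome X at 48326185 had summits 1 bp apart although the region was 1864 bp long untreated and 582 bp after MST-312, so its centre kept its height while its called flanks were shorter. The last of the 10, on chromosome 8, had 171 and 173 fragments over a local background of 63.6 and 72.0. Like the chromosome 20 pair it had a low fold enrichment, of 2.66 and 2.38.

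High input background was rare among the kept or raised pairs as a whole. In 7 of the 2158 (0.324%, 0.131 to 0.667) the untreated local background was over 3 times the median of the untreated list, which is 7.71 fragments. Among lowered pairs at equal mean pileup the share was 0.102%. The median untreated background was 7.71 fragments in both sets, and the median MST-312 background 7.03 in both. With each background subtracted from its pileup, the number of kept or raised pairs was 2202.

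The 10 pairs with the highest ratios, among those with a mean pileup of at least 50 fragments, were regions of low untreated signal. They had 35 to 50 fragments untreated and 90 to 120 after MST-312, with ratios from 2.40 to 2.73. The highest ratio, 2.73 (counting interval 1.88 to 4.02), was on chromosome 18 at 23113074 to 23113721, with 40 fragments untreated and 109 after MST-312. The region was 648 bp long untreated and 982 bp after MST-312, and its −log10 q was 15.9 and 90.2. Its untreated call was thus close to the lowest listed value of 13.01. On chromosome 19, the region at 24006706 to 24007174 had 37 and 100 fragments (ratio 2.70, 1.84 to 4.06). On chromosome 16, the region at 25564941 to 25565424 had 35 and 90 (2.57, 1.72 to 3.92).

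Chromosome 7 held the pair at 137849417 to 137849894, with 42 and 108 fragments, and chromosome 17 the pair at 50197907 to 50198209, with 39 and 98. Chromosome 11 held the pair at 123572566 to 123573227, with 45 and 112. The others were on chromosome 1 at 205282437 to 205283466 (43 and 105), chromosome 18 at 12749783 to 12750664 (43 and 105), chromosome 18 at 29238148 to 29238476 (43 and 104) and chromosome 20 at 24565479 to 24565847 (50 and 120). Chromosome 18, with 249 of all 14199 pairs (1.75%), held 3 of these 10, which the ratio itself ranked. All 10 had ordinary local background, from 4.82 to 8.68 fragments untreated and from 4.74 to 7.91 after MST-312. Their summits lay 9 to 275 bp apart. None had another pair within 25 kb: the nearest stood 25.7 to 954 kb away, whereas the median over all kept or raised pairs was 18.1 kb. Among the 198 pairs with a ratio of 1.5 or more the median was close to that 18.1 kb. The wide spacing is thus a description of these 10 ranked pairs and not of pairs with high ratios in general.

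At the limit itself, 276 pairs had an MST-312 pileup equal to the untreated one or less than 2% above it, and 121 one at most 2% below it, the first count including the 186 equal pairs. The 3 strongest pairs just inside were the ones on chromosomes 20, 9 and 8 described above. The 3 strongest just outside lay on chromosome 14 at 105392759 to 105394486 (230 and 228 fragments), chromosome 2 at 128396945 to 128398438 (220 and 218) and chromosome 19 at 45958707 to 45960166 (206 and 205). Those 3 lowered pairs had fold enrichments from 10.9 to 23.1 and missed the limit by 1 or 2 fragments.

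Kept or raised regions were shorter in the untreated list than lowered regions of equal mean pileup. Their median untreated length was 662 bp (quartiles 455 and 934) against 766 bp (quartiles 514 and 1105), and the order was the same in each of the 10 parts by mean pileup. In the MST-312 list the median length was 599 bp in both sets, with quartiles of 440 and 822 bp against 421 and 845 bp. The length of a region is set by where the same signal passes the caller's threshold, so it is not independent of the pileup. The comparison turned with the measure that was held equal. At equal untreated pileup the kept or raised regions were longer, with 662 against 629 bp untreated and 599 against 525 bp after MST-312. At equal MST-312 pileup they were shorter, with 662 against 977 bp and 599 against 744 bp. In each library a kept or raised region thus had a length between those of lowered regions matched in one library and in the other, and no difference of length apart from pileup can be read from these medians.

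Within a pair the MST-312 region was the longer one in 892 of the 2158 (41.3%, 39.2 to 43.4), and in 27.0% of lowered pairs at equal mean pileup. The median length after MST-312 was 0.936 of the untreated length in the kept or raised pairs and 0.828 in the lowered ones. The called region was thus not longer in most pairs even where the summit did not fall. The MST-312 region lay wholly inside the untreated one in 31.6% of kept or raised pairs (29.7 to 33.7), against 44.2%, and the untreated region wholly inside the MST-312 one in 20.3% (18.6 to 22.1), against 11.1%. Among the pairs with a ratio from 1.0 to under 1.1 the MST-312 region was longer in 36.5% of 887, and among the 198 with 1.5 or more in 49.5% (42.3 to 56.7). For lowered pairs that share was 32.2% at equal untreated pileup and 22.9% at equal MST-312 pileup. Length depends on the same signal as the pileup, and the pileup ratio chose these pairs and classes. The shares and length ratios here are therefore a description, and no change of length apart from pileup is read from them.

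By untreated length, 36.9% (33.9 to 40.0) of the 991 pairs under 400 bp were kept or raised. The share was 23.3% of 4428 pairs from 400 to under 800 bp, 12.4% of 4256 from 800 to under 1200 bp and 5.11% (4.48 to 5.79) of 4524 from 1200 to under 2000 bp. Pairs of the same mean pileup, whatever their length, would give 29.2%, 20.5%, 13.3% and 8.75% in these classes. As above, length is not independent of pileup, and kept or raised pairs have the lower untreated pileup even at equal mean pileup. No difference of length apart from pileup is therefore read from these shares. Of the 1066 pairs with untreated regions of 2000 bp or more, which the rule leaves out, 27 had a ratio of 1.0 or more (2.53%).

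The summits of kept or raised pairs stayed about as close as those of lowered pairs. The distance between the untreated and the MST-312 summit had a median of 51.0 bp (quartiles 22 and 100) against 54.0 bp (quartiles 23 and 114) at equal mean pileup. It was at most 100 bp in 1620 of the 2158 pairs (75.1%, 73.2 to 76.9), against 71.1%. Summits over 500 bp apart occurred in 43 pairs (1.99%, 1.45 to 2.67), against 3.64%, and the largest distance was 987 bp. Region length limits this distance, and it was not held equal (median untreated length 662 against 766 bp). The median distance was 62.0 bp for kept or raised pairs in the lowest part by mean pileup, against 57.0 bp for lowered ones, and 37.0 against 53.0 bp in part 5. The 2 sets therefore did not keep 1 order in all parts. At equal MST-312 pileup the medians were 51.0 bp for kept or raised and 49.0 bp for lowered pairs, so the small difference turned with the matched measure here too. Among the 198 pairs with a ratio of 1.5 or more, 79.3% (73.0 to 84.7) had summits within 100 bp.

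**Figure D3:**
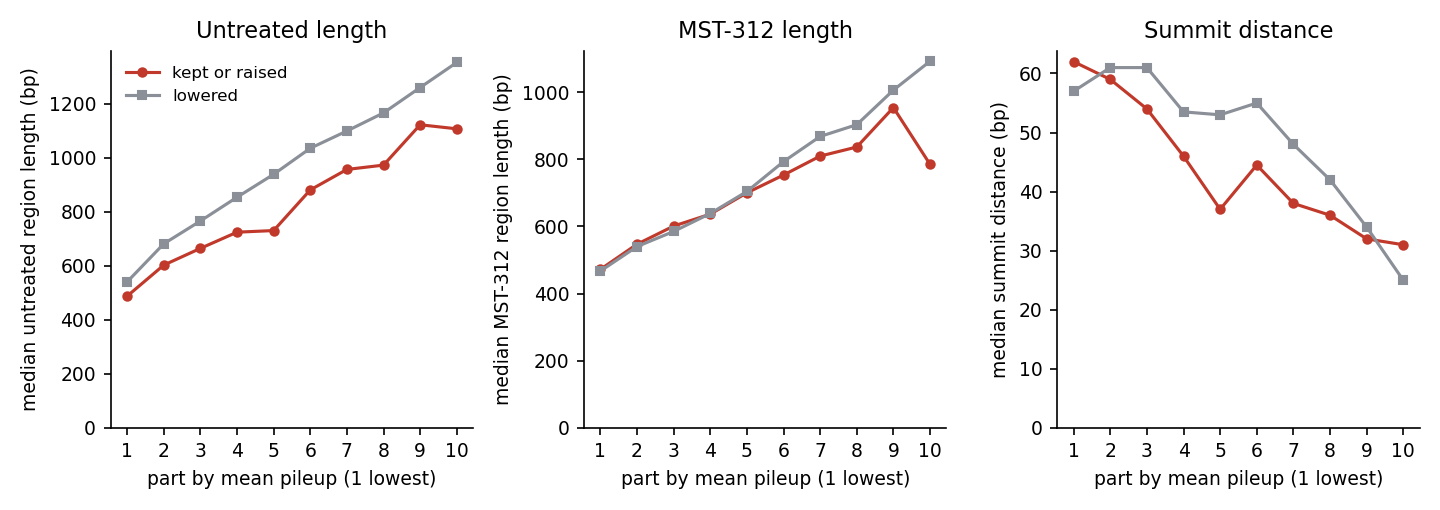
Median untreated length, median MST-312 length and median summit distance (y axes, bp, from 0) in 10 parts by mean pileup (x axes, 1 lowest), for kept or raised (red circles) and lowered pairs (grey squares). Untreated length is lower for kept or raised pairs in every part, MST-312 length is nearly the same up to part 5, and the highest part holds only 10 kept or raised pairs.

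Kept or raised pairs were spread over all of chromosomes 1 to 22 and X. The share of pairs that were kept or raised was highest on chromosome 18 (49 of 249, 19.7%, 14.9 to 25.2), chromosome 21 (28 of 145, 19.3%, 13.2 to 26.7) and chromosome 3 (156 of 843, 18.5%, 15.9 to 21.3). It was lowest on chromosome 19 (99 of 890, 11.1%, 9.13 to 13.4), chromosome 16 (81 of 656, 12.3%, 9.93 to 15.1) and chromosome 22 (50 of 402, 12.4%, 9.37 to 16.1). The share that pairs of the same mean pileup had over all chromosomes lay inside the interval on 19 of the 23. It lay outside on chromosome 3, where 15.6% of pairs at equal mean pileup were kept or raised, on chromosome 19 with 14.1%, on chromosome 6 with 19% against 14.9% (12.2 to 17.8) and on chromosome X with 20.6% against 14.7% (11 to 19.2). Chromosome 3 was above and the other 3 were below. These are 23 intervals read side by side without a test. The single pair on chromosome Y was lowered.

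The median ratio of all pairs was 0.657 on chromosome 19 and 0.742 on chromosome 18. Chromosome X had a median ratio of 0.735, among the highest, although its kept or raised share was below that at equal mean pileup. Its pairs were weak, with a median mean pileup of 63.5 fragments against 84.2 on chromosome 19. The 198 pairs with a ratio of 1.5 or more were 1.39% of all pairs. By chromosome the share was highest on chromosome 18 (9 pairs, 3.61%, 1.67 to 6.75). Chromosomes 21 (5 pairs, 3.45%, 1.13 to 7.86) and 20 (11 pairs, 2.52%, 1.27 to 4.47) followed. Next were chromosomes 7 (15 pairs, 2.31%, 1.3 to 3.78) and 13 (6 pairs, 2.19%, 0.808 to 4.71). It was lowest on chromosomes X (1 pair, 0.321%, 0.00811 to 1.77) and 22 (2 pairs, 0.498%, 0.0603 to 1.79), leaving out chromosome Y with its single pair. Of these intervals only that of chromosome 18 did not hold 1.39%, so the order of the others is not read as a difference.

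**Figure D4:**
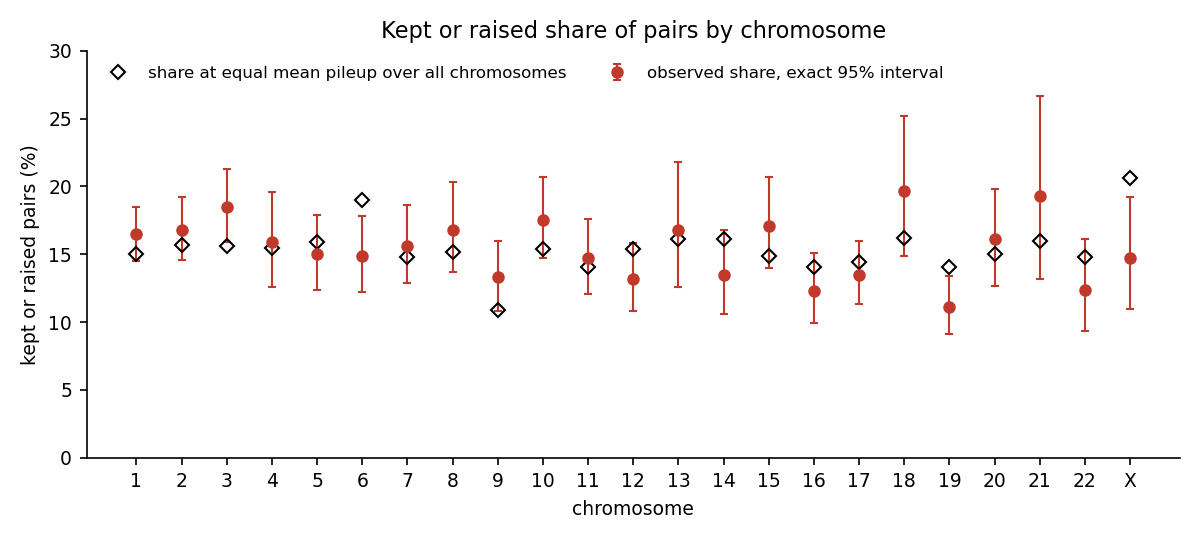
Share of pairs that were kept or raised on each chromosome (y axis, percent, from 0), with exact 95% intervals (red), beside the share among pairs of the same mean pileup over all chromosomes (open diamonds). Chromosome 3 lies above its diamond and chromosomes 6, 19 and X below, beyond their intervals.

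Kept or raised pairs had kept or raised neighbours somewhat more often than lowered pairs did. Looking to both sides of each kept or raised pair along its chromosome gave 4309 neighbour positions. Of these positions, 802 held a kept or raised pair (18.6%, 17.5 to 19.8). The same pair can fill more than 1 position, and the interval treats each position as separate. Next to lowered pairs of equal mean pileup the share was 15.8%. Where the nearest pair lay under 2 kb away, it was kept or raised for 62 of 230 (27.0%, 21.3 to 33.2), against 16.9%. From 2 to 5 kb the shares were 22.2% and 19.7%, from 5 to 10 kb 22.1% and 14.9%, from 10 to 50 kb 20.9% and 16.3%, and from 50 to 200 kb 18.5% and 15.0%. Beyond 200 kb they were 14.6% (9.84 to 20.5) and 15.1%, so the difference was not seen at that distance. The mean pileup of the neighbour was not held equal, and neighbours counted from both sides are not independent. The median ratio of the nearest pair was 0.742 beside kept or raised pairs and 0.710 beside lowered ones, so the typical neighbour of a kept or raised pair was itself lowered.

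The nearest pair was a median of 18.1 kb away from kept or raised pairs and 24.3 kb from lowered pairs at equal mean pileup. Regions called in 1 list only were also more frequent around kept or raised pairs. An MST-312 region without an untreated partner lay within 50 kb of 1005 of the 2158 (46.6%, 44.4 to 48.7), against 39.0%. An untreated region without an MST-312 partner lay within 50 kb of 1498 (69.4%, 67.4 to 71.4), against 64.9%. The mean number of regions without a partner within 50 kb was 0.675 against 0.533 for the MST-312 list and 1.53 against 1.41 for the untreated list. Regions of any kind were denser there too. With the pair itself counted, the means within 50 kb were 4.76 against 4.41 for all untreated and 3.99 against 3.61 for all MST-312 regions. Whether single-list regions stood out from this general density was not tested. Within 500 kb nearly every pair of either set had such a region, so the share says little there. The mean number within 500 kb was 4.50 against 4.07 for MST-312-only regions and 9.58 against 9.6 for untreated-only regions, so at that distance the 2 lists differed. In 4 classes of the ratio, divided at 1.1, at 25% above the untreated pileup and at 1.5, the share with an MST-312-only region within 50 kb was, from the lowest class up, 45.4%, 46.0%, 48.0% and 50.5% (43.3 to 57.7). The share with an untreated-only region was 70.5%, 69.6%, 68.1% and 66.7% (59.6 to 73.2). The first share was thus higher and the second lower in each higher class, and in both the intervals of the end classes overlap. The 50 kb shares for lowered pairs were 39.4% and 37.5% for MST-312 regions at equal untreated and at equal MST-312 pileup, and 63.2% and 66.1% for untreated regions.

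**Figure D5:**
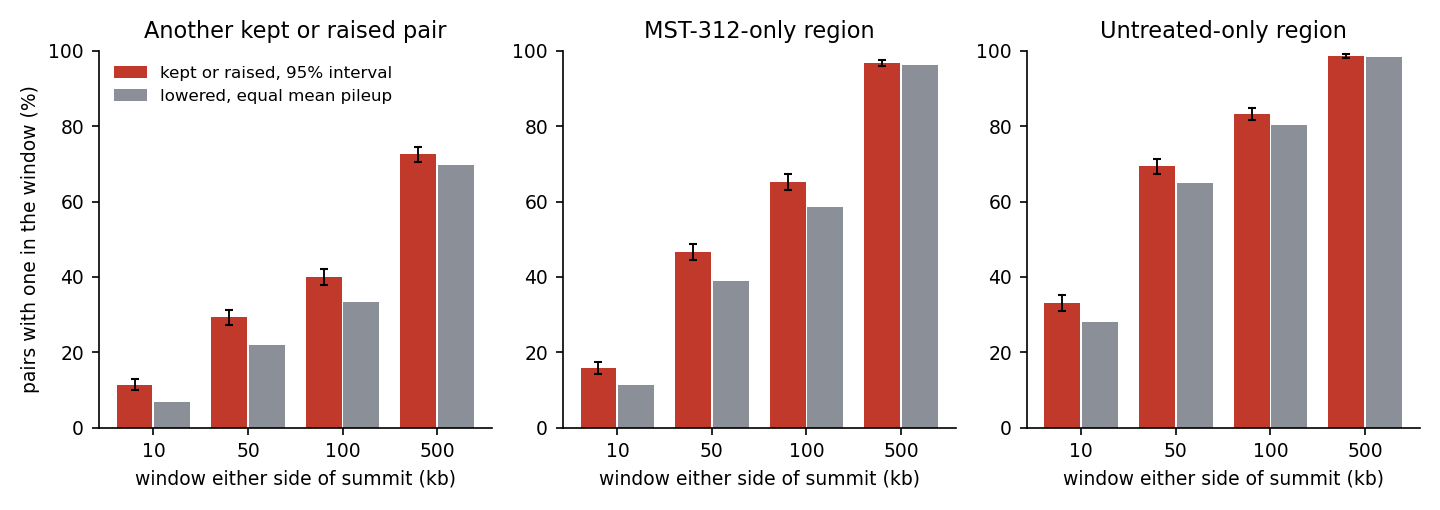
Share of pairs (y axes, percent, from 0) with another kept or raised pair, an MST-312-only region or an untreated-only region within 10, 50, 100 or 500 kb of the untreated summit (x axes), for kept or raised pairs (red, exact 95% intervals) and lowered pairs at equal mean pileup (grey). The red bars are higher at 10 to 100 kb in all 3 panels and at 500 kb nearly all pairs have a region of either single list, so that the shares there are close to their upper limit.

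Of the 2158, 1444 (66.9%) had no kept or raised pair next to them in the order of pairs along the chromosome. With 15.2% of all pairs kept or raised, the rule largely sets this count and those of the runs, and nothing is read from them. There were 246 runs of 2, 51 of 3, 12 of 4, 3 of 5 and 1 of 6, and the 4 runs of 5 or more are described here. The run of 5 on chromosome 5 was the most compact, with summits over 41.9 kb. Its members lay at 131794688 to 131796225 (103 fragments untreated and 157 after MST-312), 131800082 to 131800458 (52 and 63), 131823658 to 131824210 (44 and 69), 131824667 to 131825559 (51 and 53) and 131836105 to 131837314 (51 and 53). The first of them was 1538 bp long untreated and 2126 bp after MST-312, so height and length rose together there. The last kept its height while its length went from 1210 to 489 bp.

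Chromosome 3 held 2 runs of 5. In the one from 193611920 to 193751347, over 139 kb, untreated pileups were 36 to 99 fragments and MST-312 pileups 48 to 101, and the ratio reached 1.533. Its strongest member, at 193720738 to 193721843, had 99 and 101 fragments. In the one from 112512448 to 112710388, over 197 kb, pileups were 31 to 61 and 38 to 68, with ratios from 1.11 to 1.70. The highest ratio there belonged to the region at 112579678 to 112580048, with 33 and 56 fragments and summits 121 bp apart.

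The run of 6 on chromosome 9 was spread over 1560 kb, from 108463113 to 110023296. Its pairs at 109782287 to 109782838 (58 and 95 fragments, ratio 1.64) and 109786103 to 109786923 (47 and 80, ratio 1.70) lay side by side and rose together. The other 4 had ratios from 1.00 to 1.04, with 53 and 55, 38 and 38, 103 and 104, and 60 and 60 fragments. This run is thus a raised neighbouring pair of regions among kept ones, in a stretch with no other one-to-one pair under 2000 bp. Regions of 1 list only and longer or split regions are not part of that count. These runs were picked as the longest of the series and are a description.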

How the data were processed

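MYC ChIP-seq was measured in 1 untreated and 1 MST-312 library of P493 cells, with 1 input library. The submitters' processing notes name CASAVA 1.8, Bowtie2 2.2.3 and the hg19 build. The authors called peaks in each library separately against the same input with MACS2 2.0.10.20131216, per the file headers. As signal the deposited lists give the pileup, a count of extended fragments over the summit. As a ratio they give the deposited fold enrichment over local background, and the deposited −log10 p and q values come from the caller. The deposited lists hold only values from 13.01 and 13.02 of −log10 q upward, and the headers do not name the filter behind this. Local background was recovered as (pileup + 1) / fold enrichment − 1.

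Pairs were formed with pandas 2.3.3 and numpy 2.4.6 under Python 3.11.15, and intervals with scipy 1.17.1. Figures were drawn with matplotlib 3.10.9. Lowered pairs were weighted over 20 strata of mean pileup, cut at the quantiles of the kept or raised pairs, so that each stratum weighed what it weighs among those pairs. For chromosomes and length classes, 20 strata of all pairs were used. Counting intervals of a ratio came from the exact binomial interval of the MST-312 share of both pileups; they cover counting error only, as tags lack molecular identifiers. Pairing and weighting were tested on simulated data. Named regions were the 10 with the highest ratio at a mean pileup of at least 50, the 10 with the highest mean pileup, the 3 strongest on each side of the limit and the longest runs. A list of 5 runs was planned, and since 12 runs of 4 tie for the last place only the 4 longer ones are given. Members and lists were chosen with earlier results of these data known. Gene and sequence steps were planned and not run, since the reference tables used are on GRCh38 and coordinates were not converted.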

Additional observations from a re-analysis of the deposited data

How the results depend on the processing

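No paired analysis was possible because each condition is 1 library, and for the same reason no replicate could be left out. Settings with a −log10 q of at least 26 for the differences, with background subtracted, with 1 library's pileup held equal, and all for chromosome 19 were chosen after seeing the data. Under 77 alternatives, 48 values were labelled the same, 27 moved and 2 reversed. For counts, the same meant within 1.5 times the report. For the share of all pairs and that on chromosome 19, it meant within the reported interval. The differences in the next paragraph have no reported interval. Their labels rest on a tolerance that is not given here, so they are a description and not a test. The causes of the moves and reversals were not tested. The number of kept or raised pairs (2158) was 606 where the MST-312 pileup had to be 25% higher, 791 where −log10 q had to reach 26 in each list and 3393 by fold enrichment. Their share (15.2%) was 4.27%, 9.83% and 23.9% under these settings, 22.2% with pileups divided by kept tags and 14.3% with no limit on length. On chromosome 19 it (11.1%) was 3.26%, 7.0%, 17.8% and 16.4% under the first 4 of these.

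Differences below are kept or raised minus lowered. That in median untreated length (-104 bp) was -201 bp with pairs raised by 25% against those with a ratio below 0.8, -127 bp with −log10 q of at least 26, -315 bp at equal MST-312 pileup and 33 bp, so reversed, at equal untreated pileup. That in MST-312 length (0 bp) was -25 bp with −log10 q of at least 26, -145 bp at equal MST-312 pileup and 74 bp at equal untreated pileup. That in summit distance (-3 bp) was -9 bp with the 25% limit, -10 bp with −log10 q of at least 26 and 2 bp, so reversed, at equal MST-312 pileup. That in the kept or raised share of neighbours (2.77 percentage points) was 1.42 with summits within 100 bp, 1.41 with the 25% limit and 3.97 at equal MST-312 pileup. That in local background (0 fragments) was -0.135 with the 25% limit, 0.193 with −log10 q of at least 26, 0.964 at equal untreated and -1.16 at equal MST-312 pileup. Depth enters the deposited pileups, and so the ratios and their counting intervals. The only alternative for it was the division of pileups by kept tags, and no library was reduced to a lower depth.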
